A study of Rattus norvegicus with 45 samples.

Results

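The proteasome genes of the rat liver were taken as the probe sets (the groups of short probes that read 1 transcript on the array) whose single annotated gene symbol begins with Psma, Psmb, Psmc, Psmd or Psme followed by a digit, with 1 probe set per gene, the one of highest mean over all arrays. This gave 41 genes of the 14217 genes with such a probe set. By structure they are 7 alpha subunits and 6 constitutive beta subunits of the 20S core, 3 immunoproteasome beta subunits (Psmb8, Psmb9 and Psmb10), 6 ATPases and 11 non-ATPase subunits of the 19S regulator, 3 assembly chaperones that carry Psmd names (Psmd5, Psmd9 and Psmd10), 3 activators (Psme1, Psme2 and Psme4) and 2 genes that are named after a subunit without being one (Psmc3ip and Psme3ip1). The symbol rule did not use any measured level apart from the choice among a gene's probe sets. Psmb6 and Psme3 were read only by probe sets annotated to several genes, so they are not members and have no values here.

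The proteasome is the protease that degrades proteins tagged with ubiquitin in the cytosol and the nucleus. Its 20S core is a barrel with the proteolytic sites on the inner face of the beta rings, and the 19S regulator caps the barrel, binds and removes ubiquitin chains and feeds the unfolded protein in. When proteasome capacity falls short, the transcription factor NRF1 (gene Nfe2l1) raises the genes of core and cap together through antioxidant response elements, and the related NRF2 (Nfe2l2) can act on some of them; interferon gamma instead raises Psmb8, Psmb9, Psmb10 and the PA28 activator (Psme1 and Psme2), which replace constitutive parts for antigen processing. In liver the proteasome is also known for the turnover of cytochrome P450 proteins, a family that azole fungicides bind.

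The series measured total RNA from liver on 45 Affymetrix Rat Genome 230 2.0 arrays. The animals were Sprague-Dawley males aged 10 weeks, adults, and gavage was the route. Myclobutanil (225 mg/kg/day) and triadimefon (175 mg/kg/day) are triazole fungicides, and each was compared with controls after 6 h, 24 h and 14 days, with 5 arrays in each of the 9 groups; what the controls were dosed with is not given in the sources used here. The titles give 5 arrays per group, the design text speaks of 5 biological replicates per treatment and 15 livers, and the labelling protocol of 3 rats per group, so the number of animals behind each group rests on the titles. The doses of the compounds differ, so a difference between them is one between treatments. Values are the deposited scores, on a log-type scale whose base the sources do not state, with the median of each array between -0.01 and 0.03; differences are in these score units and are not turned into folds.

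The arrays differed in their bright end: the 99th percentile of the score ran from 2.69 to 3.52 between arrays, and 35 of the 41 proteasome genes had a mean score above 1. Over the arrays, as deviations from their group means, the mean of the 34 core genes (all members except Psmb8, Psmb9, Psmb10, Psme1, Psme2 and the 2 genes that are not subunits) correlated with that percentile with r = 0.82 as deposited and r = 0.02 after quantile normalization, which gives every array the same distribution of values (45 arrays; both quantities come from the same arrays). The median within-group SD of the members was 0.10 as deposited and 0.055 after quantile normalization. The main counts of called members are therefore given on both scales, the deposited one first, while some values are given on 1 scale only. Hepatocyte markers such as Alb and Apoa1 were the brightest of the marker lists. Their array means over 7 genes lay between 4.07 and 4.17 after quantile normalization, which itself makes the bright end alike on every array. Because the RNA is from whole liver, fewer cells of a type and less RNA per cell cannot be told apart.

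The promoters of 37 of the 41 genes matched the RefSeq promoter table (assembly GRCr8, 250 bases before to 50 after the start; Psma7, Psmd12, Psmd14 and Psmd6 had no entry). The core of the antioxidant response element, TGACNNNGC on either strand, was found in 12.1% of all 33469 promoters of that length and in 7 of the 37, those of Psma3, Psmb2, Psmb5, Psmd1, Psmd3, Psmd9 and Psme4. The CCAAT box, bound by NF-Y, was in 37.5% of all promoters and in 20 of the 37, and TTCNNNGAA, the motif of interferon-activated STAT factors, in 8.87% of all and in 4 of the 37. These 4 were the immunoproteasome gene Psmb8 and the constitutive cap genes Psmc6, Psmd3 and Psmd7; the letters were not found in the windows of Psmb9, Psmb10, Psme1 and Psme2. A match is a run of letters in this window, not a measured binding site. The promoters of a catalytic core subunit, a scaffold subunit of the cap, an alpha subunit and the immunoproteasome subunit Psmb8 are shown as examples of each motif among the members. They are written 5′ to 3′ on the gene's strand, and capitals mark every match to the 3 motifs (a match on the other strand appears as its reverse complement). In Psmb5 (chr15:32047330-32047629, minus strand) the capitals are TGACGTCGC, from -60 to -52 relative to the start. In Psmd1 (chr9:94157721-94158020, plus strand) they are TGACCTCGC, from -165 to -157, and TGACTGAGC from base 23 to base 31 after it. In Psma3 (chr6:95219499-95219798, plus strand) they are 3 CCAAT boxes and 1 antioxidant core on the other strand, from -12 to -4. In Psmb8 (chr20:4656982-4657281, minus strand) they are TTCCCAGAA, from -245 to -237, and a CCAAT box on the other strand.
Psmb5: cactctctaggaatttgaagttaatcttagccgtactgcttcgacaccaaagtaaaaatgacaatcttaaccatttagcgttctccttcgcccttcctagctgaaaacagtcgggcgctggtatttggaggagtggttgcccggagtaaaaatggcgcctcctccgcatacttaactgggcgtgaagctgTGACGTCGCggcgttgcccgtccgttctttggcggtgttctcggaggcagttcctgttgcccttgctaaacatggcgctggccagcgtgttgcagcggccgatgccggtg
Psmd1: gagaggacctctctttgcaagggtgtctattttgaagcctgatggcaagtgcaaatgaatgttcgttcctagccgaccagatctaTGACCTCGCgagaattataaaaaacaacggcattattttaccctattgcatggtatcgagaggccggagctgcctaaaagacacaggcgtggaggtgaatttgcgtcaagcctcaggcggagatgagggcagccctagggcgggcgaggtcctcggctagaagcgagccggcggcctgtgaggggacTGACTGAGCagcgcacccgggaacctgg
Psma3: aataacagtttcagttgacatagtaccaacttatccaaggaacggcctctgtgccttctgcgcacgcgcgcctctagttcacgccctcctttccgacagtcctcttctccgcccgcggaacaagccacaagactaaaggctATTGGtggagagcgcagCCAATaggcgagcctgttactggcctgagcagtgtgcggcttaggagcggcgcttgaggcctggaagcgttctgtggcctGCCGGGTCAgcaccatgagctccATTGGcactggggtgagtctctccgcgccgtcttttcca
Psmb8: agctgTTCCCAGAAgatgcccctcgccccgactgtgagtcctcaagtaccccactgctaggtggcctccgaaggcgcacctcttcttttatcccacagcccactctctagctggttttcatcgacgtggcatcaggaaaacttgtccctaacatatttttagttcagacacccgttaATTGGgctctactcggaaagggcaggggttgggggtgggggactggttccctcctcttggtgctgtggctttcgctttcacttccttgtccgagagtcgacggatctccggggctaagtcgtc

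At 24 h of myclobutanil transcript scores of constitutive proteasome genes were higher in core and cap, in part as deposited and more widely after quantile normalization. The immune genes were not called. As deposited, 17 of the 41 genes were higher than the controls of that time and 0 were lower, by limma with an adjusted p under 0.05 over all 31042 probe sets; after quantile normalization 33 were higher, which include all of those 17, and 0 were lower. The same rule called 3.92% of all genes higher as deposited and 8.24% after quantile normalization. Among the 2610 genes of mean score above 1 the shares were 2.95% and 16.0%. The median difference of the 41 genes was 0.15 as deposited and 0.25 after quantile normalization, and that of all genes was -0.01 and 0.00. Without 1 array the deposited count lay between 7 (without myclobutanil replicate 3) and 24, and it was 9 without control replicate 1 or 4. With only the arrays of these groups in the fit it was 5. The calls of Psma7, Psmd1, Psmd2, Psmd3, Psmd5, Psmd13 and Psmd14 were kept whichever array was left out.

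**Figure D1:**
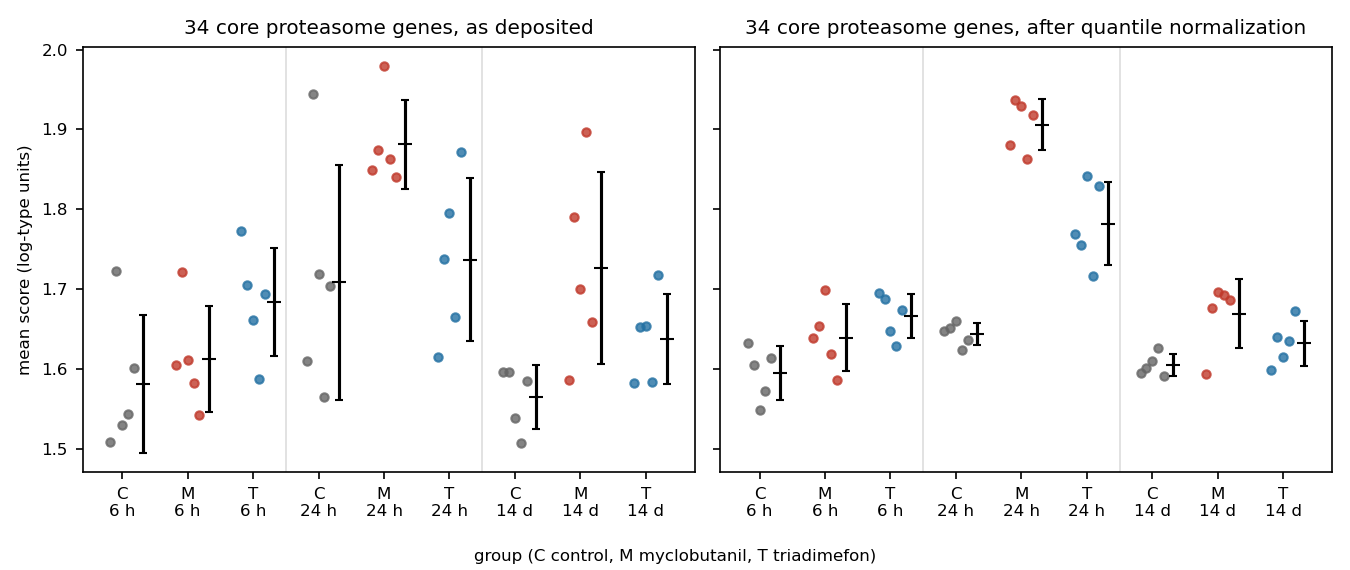
Mean score of the 34 core proteasome genes on each of the 45 arrays (points), with the mean and SD of each group of 5 arrays (bars), as deposited at left and after quantile normalization at right; C, control; M, myclobutanil; T, triadimefon; the vertical axis does not start at 0. After quantile normalization the 24 h myclobutanil arrays lie between 1.86 and 1.94, above the triadimefon arrays at 1.72 to 1.84 and the controls at 1.62 to 1.66; as deposited 1 control array of that time, at 1.94, lies among the myclobutanil arrays.

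On the array level the mean of the 34 core genes at 24 h was 1.71 ± 0.15 (SD, n = 5) in controls, 1.88 ± 0.056 with myclobutanil and 1.74 ± 0.10 with triadimefon as deposited. After quantile normalization it was 1.64 ± 0.014, 1.91 ± 0.032 and 1.78 ± 0.052, and the arrays of the 3 groups did not overlap. The control array that lies among the myclobutanil arrays as deposited is the second replicate, which also had the highest 99th percentile of all arrays (3.52). The deposited 99th percentiles at 24 h were 2.94, 3.52, 3.06, 2.88 and 3.10 in controls. They were 2.98, 2.86, 3.05, 3.00 and 2.81 with myclobutanil, and 2.77, 3.01, 2.94, 2.86 and 3.08 with triadimefon. The part of these percentiles in the larger counts after quantile normalization was not tested. The gap between the core mean and the mean of the 5 immune genes of the same array, which a shift common to both leaves untouched, ran from -0.08 to 0.03 in the 24 h controls, from 0.09 to 0.23 with myclobutanil and from -0.10 to 0.22 with triadimefon as deposited. The myclobutanil arrays thus did not overlap the controls in this gap, while the triadimefon arrays overlapped both groups.

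In the 19S regulator the largest difference was that of Psmd14, the metalloprotease that cuts ubiquitin chains from the substrate at the entry of the core. Its deposited scores at 24 h were 1.35, 1.74, 1.54, 1.28 and 1.50 in the controls, 1.82, 1.86, 1.99, 1.83 and 1.84 with myclobutanil, and 1.47, 1.46, 1.61, 1.50 and 1.61 with triadimefon. Every myclobutanil array was above every control and every triadimefon array, while triadimefon arrays lay inside the range of the controls. The myclobutanil difference was 0.39 ± 0.059 (SE; limma, adjusted p = 2.1e-05) as deposited and 0.47 ± 0.038 (adjusted p = 7.2e-12) after quantile normalization. Psmd14 has 2 other probe sets, and both were called higher as well, by 0.38 and 0.22 as deposited.

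**Figure D2:**
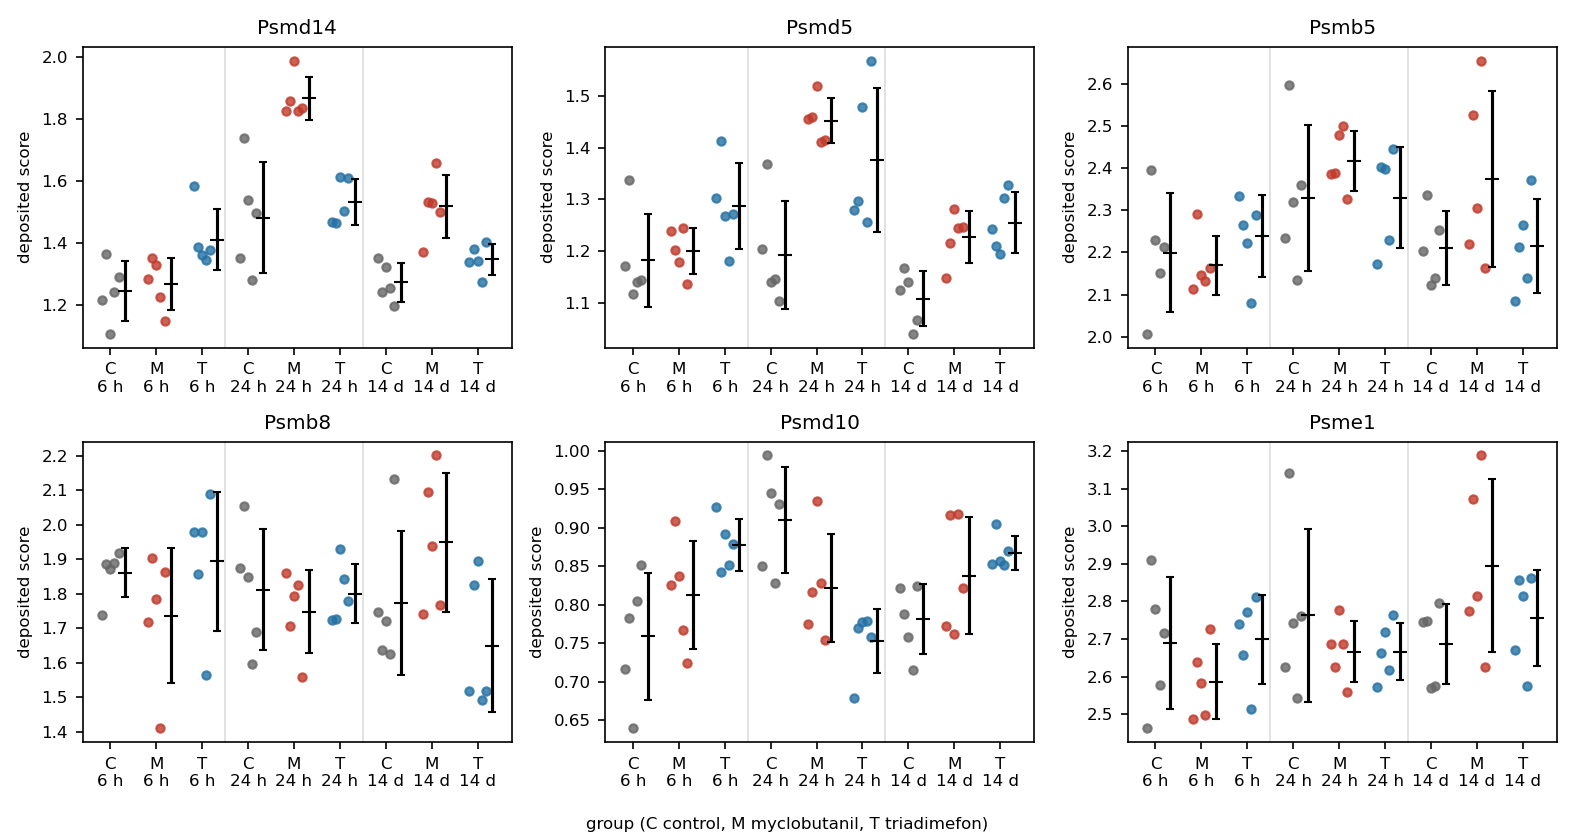
Deposited score on each array (points) with the mean and SD of each group of 5 arrays (bars) for Psmd14, Psmd5, Psmb5, Psmb8, Psmd10 and Psme1; C, control; M, myclobutanil; T, triadimefon; each panel has its own vertical axis, which does not start at 0. At 24 h the myclobutanil arrays of Psmd14 and Psmd5 lie above every control array, those of Psmb5, Psmb8 and Psme1 overlap the controls, and the triadimefon arrays of Psmd10 lie below every control array.

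The scaffold subunits Psmd2 and Psmd1, which hold ubiquitin receptors and shuttle proteins, moved in the same direction. Psmd2 read 1.68, 1.92, 1.77, 1.66 and 1.80 in the 24 h controls and 2.03, 2.03, 2.13, 2.06 and 2.02 with myclobutanil, a difference of 0.29 ± 0.052 (SE; limma, adjusted p = 0.00028). Psmd1 differed by 0.22 ± 0.048 (adjusted p = 0.0021), Psmd13 by 0.21 ± 0.033 (adjusted p = 4.5e-05), Psmd8 by 0.23 and the scaffold subunit Psmd3 by 0.16. The groups of Psmd1, Psmd2, Psmd13 and Psmd14 did not overlap as deposited. For Psmd1 the margin was small, with the highest control at 1.2896 and the lowest myclobutanil array at 1.2921. The share of all genes without overlap in this comparison was not counted. Psmd14, Psmd2, Psmd1, Psmd13, Psmd8 and Psmd3 were the called genes among the 11 non-ATPase subunits as deposited, and after quantile normalization all 11 were called higher, including Psmd4, the ubiquitin receptor, by 0.20 (adjusted p = 2.9e-06), Psmd6, Psmd7, Psmd11 and Psmd12. Of the 6 ATPases, which form the unfolding ring of the cap, Psmc1, Psmc3, Psmc4 and Psmc5 were called as deposited, with differences of 0.17, 0.20, 0.19 and 0.24. All 6 were called after quantile normalization, where Psmc2 differed by 0.26 and Psmc6 by 0.19.

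In the alpha rings of the core, which gate the entry to the barrel, Psma1, Psma4, Psma5 and Psma7 were called higher as deposited and all 7 after quantile normalization. Psma7 read 2.00, 2.39, 2.12, 1.91 and 2.11 in the 24 h controls and 2.34, 2.34, 2.52, 2.40 and 2.32 with myclobutanil. Only the second control array reached the myclobutanil range. The difference was 0.28 ± 0.074 (SE; limma, adjusted p = 0.014) as deposited and 0.38 ± 0.033 (adjusted p = 3.5e-11) after quantile normalization. Psma5 differed by 0.26, Psma1 by 0.24 and Psma4 by 0.21 as deposited. Psma3 had the smallest difference of the ring after quantile normalization, 0.11 (adjusted p = 0.030), and its groups overlapped.

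Of the 6 constitutive beta subunits, the structural subunits Psmb3 and Psmb4 were called as deposited, by 0.26 and 0.25. All 6 were called after quantile normalization, with Psmb4 at 0.40, Psmb3 at 0.38, Psmb7 at 0.29, Psmb1 at 0.23, Psmb5 at 0.20 and Psmb2 at 0.13. The catalytic subunits show how much the scale matters. Psmb5, the chymotrypsin-like site, read 2.23, 2.60, 2.32, 2.13 and 2.36 in the 24 h controls and 2.39, 2.39, 2.48, 2.50 and 2.33 with myclobutanil as deposited, overlapping groups with a difference of 0.09 ± 0.078 (SE; limma, adjusted p = 0.56). After quantile normalization the same arrays read 2.27, 2.20, 2.25, 2.21 and 2.26 against 2.41, 2.48, 2.41, 2.47 and 2.44, which do not overlap, and the difference was 0.20 ± 0.029 (adjusted p = 2.9e-06). Psmb7, the trypsin-like site, differed by 0.18 (adjusted p = 0.078) as deposited and 0.29 (adjusted p = 1e-09) after quantile normalization.

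The immunoproteasome subunits and the PA28 activator did not pass the test with myclobutanil at 24 h on either scale. Psmb8, which takes the place of Psmb5, read 1.87, 2.05, 1.85, 1.60 and 1.69 in the controls and 1.86, 1.71, 1.79, 1.82 and 1.56 with myclobutanil. The groups overlapped widely, with a difference of -0.06 ± 0.10 (SE; limma, adjusted p = 0.78) as deposited and 0.03 ± 0.086 (adjusted p = 0.88) after quantile normalization. Psmb9 differed by 0.01 and 0.09, and Psmb10, the counterpart of Psmb7, by 0.05 and 0.09, as deposited and after quantile normalization. Psme1 differed by -0.10 as deposited and 0.04 after quantile normalization, and Psme2 by -0.03 and 0.07. The within-group spread of Psmb8 was several times that of Psmb5 after quantile normalization, with SD 0.12 against 0.034 in the 24 h controls, so a difference of the size seen in Psmb5 is less detectable there. The third activator gene, Psme4, which encodes PA200, was not called as deposited and was higher by 0.17 (adjusted p = 0.0046) after quantile normalization.

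The assembly chaperones did not move as a block. Psmd5, which holds ATPases of the cap during assembly, read 1.20, 1.37, 1.14, 1.15 and 1.10 in the 24 h controls, 1.46, 1.46, 1.52, 1.41 and 1.42 with myclobutanil, and 1.28, 1.30, 1.48, 1.26 and 1.57 with triadimefon. The myclobutanil arrays were above every control (difference 0.26 ± 0.049, SE; limma, adjusted p = 0.00041), and the triadimefon arrays overlapped the second control array (0.18 ± 0.049, adjusted p = 0.015). Without control replicate 5, triadimefon replicate 3 or triadimefon replicate 5 the triadimefon call of Psmd5 was lost, with the largest adjusted p at 0.071, and with only the arrays of these groups in the fit it was 0.20. Psmd9 was called after quantile normalization with both compounds, by 0.20 and 0.14. Psmd10, also known as gankyrin, was not called with myclobutanil at 24 h, with a difference of -0.09 as deposited and -0.05 after quantile normalization. The genes that only share a subunit's name, Psmc3ip and Psme3ip1, were not called in any comparison with controls.

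**Figure D3:**
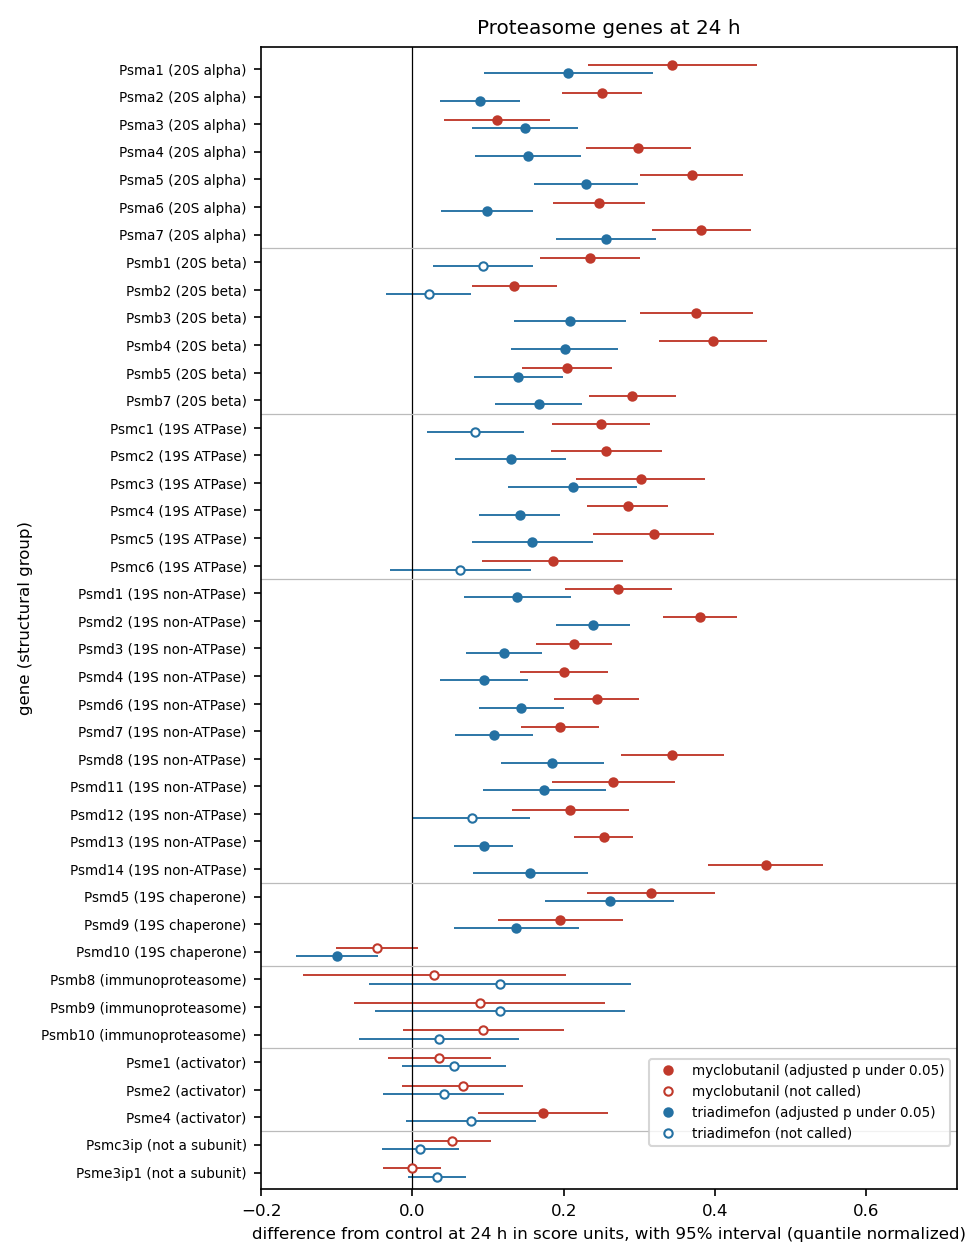
Difference from the 24 h controls in score units, after quantile normalization, for each of the 41 genes with myclobutanil (red) and triadimefon (blue); filled points have an adjusted p under 0.05 and lines are 95% intervals of the limma fit. Myclobutanil gave 33 filled points, all to the right of 0, from 0.11 (Psma3) to 0.47 (Psmd14); the immune subunits, Psme1, Psme2, Psmd10 and the 2 genes that are not subunits are open.

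With triadimefon at 24 h the deposited scores gave 1 gene higher (Psmd5, above) and 1 lower (Psmd10) of 41. All genes were called higher in 2.6% and lower in 8.31%. After quantile normalization 27 genes were higher and 1, again Psmd10, was lower, where the shares of all genes were 5.89% and 6.34%; among genes of mean score above 1 the shares called higher were 1.92% as deposited and 11.3% after quantile normalization. The median difference of the members was 0.02 as deposited and 0.13 after quantile normalization, so the count for triadimefon rests on the scaling. The 10 largest after quantile normalization were Psmd5 (0.26), Psma7 (0.26), Psmd2 (0.24), Psma5 (0.23), Psmc3 (0.21), Psmb3 (0.21), Psma1 (0.21), Psmb4 (0.20), Psmd8 (0.19) and Psmd11 (0.17). By group these calls are all 7 alpha subunits, 4 of 6 constitutive beta subunits, 4 of 6 ATPases and 10 of 11 non-ATPase subunits. Of the catalytic subunits Psmb5 differed by 0.14 (limma, adjusted p = 0.0013) and Psmb7 by 0.17 (adjusted p = 0.00011) after quantile normalization, and by 0.00 and 0.04 as deposited. Psmb8, Psmb9 and Psmb10 differed by 0.12, 0.12 and 0.04 after quantile normalization, without a call, and Psme1 and Psme2 by 0.06 and 0.04.

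Psmd10 was lower with triadimefon on both scales. Its deposited scores were 0.85, 0.99, 0.95, 0.83 and 0.93 in the 24 h controls and 0.68, 0.77, 0.78, 0.78 and 0.76 with triadimefon. The groups did not overlap, and the difference was -0.16 ± 0.037 (SE; limma, adjusted p = 0.0062) as deposited and -0.10 ± 0.027 (adjusted p = 0.012) after quantile normalization. With only the arrays of these groups in the fit the deposited adjusted p was 0.051 (limma). Psmd10 read 0.76 ± 0.083 (SD, n = 5) in controls and 0.88 ± 0.034 with triadimefon at 6 h, and 0.78 ± 0.046 and 0.87 ± 0.022 at 14 days. The triadimefon effect on Psmd10 at 24 h was lower than at 6 h by -0.28 ± 0.053 (adjusted p = 0.0023) and the effect at 14 days was higher than at 24 h by 0.24 ± 0.053 (adjusted p = 0.0027). The controls themselves rose between 6 h and 24 h by 0.15 (limma, adjusted p = 0.017), and that rise enters the first of these differences. The second also holds the 24 h controls, whose scores ran from 0.83 to 0.99 against a control mean of 0.78 at 14 days. The difference from controls at 24 h rests on the same 24 h control arrays.

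Set directly against each other at 24 h, the myclobutanil arrays had the higher mean in 37 of 41 genes as deposited and in 36 after quantile normalization. As deposited, Psmd14 (triadimefon minus myclobutanil, -0.34 ± 0.059, SE; limma, adjusted p = 0.0025) and Psmd13 (-0.18 ± 0.033, adjusted p = 0.0043) were lower with triadimefon, and no gene was higher. The rule called 1.22% of all genes lower here. After quantile normalization 24 genes were lower and 0 were higher, against 4.06% of all genes lower. The 10 largest were Psmd14 (-0.31), Psmb4 (-0.20), Psmb3 (-0.17), Psmc1 (-0.17), Psma2 (-0.16), Psmc5 (-0.16), Psmd8 (-0.16), Psmd13 (-0.16), Psma6 (-0.15) and Psma4 (-0.15). Psmd5 and Psmd9 did not pass the test between the treatments, with differences of -0.05 (95% interval -0.14 to 0.03) and -0.06 (-0.14 to 0.02). Neither did Psmb5, at -0.06 (-0.12 to -0.00), Psmb8, at 0.09 (-0.09 to 0.26), Psmb9, at 0.03 (-0.14 to 0.19), Psmb10, at -0.06 (-0.16 to 0.05), Psme1, at 0.02 (-0.05 to 0.09), or Psme2, at -0.02 (-0.10 to 0.06), on that scale, and Psmb7 was lower by -0.12 (adjusted p = 0.0072). The count after quantile normalization was 14 without triadimefon replicate 2, 15 without triadimefon replicate 4 and 10 with only the arrays of both treatments in the fit; as deposited it was 4 without triadimefon replicate 5.

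At 6 h no proteasome gene was called as deposited with myclobutanil (limma; 3 at an unadjusted p under 0.05) or with triadimefon (14 at an unadjusted p under 0.05); all genes were called higher in 0.317% and 1.01%. After quantile normalization 2 genes were higher with myclobutanil, Psmd9 by 0.21 (adjusted p = 0.0032) and Psma3 by 0.14 (adjusted p = 0.022), against 1.09% of all genes. Psmd9 read 0.91, 1.03, 0.92, 0.90 and 1.01 in the 6 h controls, 1.11, 1.38, 1.22, 1.03 and 1.04 with myclobutanil and 1.18, 1.22, 1.05, 1.05 and 1.20 with triadimefon as deposited. Each array of either treatment was above every control, though the lowest myclobutanil and the highest control array are equal at the rounding given here. The limma adjusted p values were 0.090 and 0.094 as deposited. Both treatments were set against the same 5 controls, and the share of all genes separated in this way was not counted. With triadimefon 9 genes were higher after quantile normalization, against 2.5% of all genes: Psmd9 (0.15), Psmd4 (0.14), Psmc5 (0.14), Psmc2 (0.14), Psmd14 (0.13), Psma5 (0.13), Psmd6 (0.12), Psmd10 (0.10) and Psmd13 (0.07). Without control replicate 3, triadimefon replicate 1 or triadimefon replicate 2 this count was 2, without control replicate 4 or triadimefon replicate 5 it was 4, and without control replicate 2 it was 5. For myclobutanil it was 1 without control replicate 3 or 5 or myclobutanil replicate 2, 3 or 4. The deposited array names end in a number whose meaning is not stated: all 24 h arrays share the ending 11, but the 6 h groups mix endings, and among the 6 h arrays of ending 11 (3 controls, 2 of each treatment) 0 genes were called on either scale. Psmb5 and Psmb7 differed by -0.01 and 0.01 with myclobutanil and by 0.00 and 0.03 with triadimefon at 6 h, and Psmb8, Psmb9, Psmb10, Psme1 and Psme2 by -0.11, -0.06, -0.07, -0.06 and -0.05 with myclobutanil and by -0.00, 0.03, 0.00, -0.01 and -0.01 with triadimefon, all after quantile normalization and none called.

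At 14 days 1 gene, Psmd14, was higher with myclobutanil as deposited, where 1.12% of all genes were called. It read 1.35, 1.24, 1.32, 1.25 and 1.20 in the controls, 1.37, 1.53, 1.53, 1.66 and 1.50 with myclobutanil and 1.34, 1.38, 1.34, 1.27 and 1.40 with triadimefon. The myclobutanil arrays lay above every control, with a difference of 0.25 ± 0.059 (SE; limma, adjusted p = 0.032). The call was lost in 5 of the 10 fits that left out 1 array (control replicates 2, 4 and 5, myclobutanil replicates 2 and 4), with the largest adjusted p at 0.19, and 5 and 3 genes were called without myclobutanil replicates 1 and 5. After quantile normalization Psmd14 (0.15), Psma6 (0.12) and Psmd13 (0.07) were called, against 1.02% of all genes, and without 1 array the count lay between 0 and 5, with 0 without control replicate 2 or 5 or myclobutanil replicate 3 or 4, 1 without control replicate 1 or 4 or myclobutanil replicate 2 or 5, and 5 without myclobutanil replicate 1. As deposited 30 of the 41 genes had an unadjusted p under 0.05 there and 40 were positive, with a median of 0.16; after quantile normalization 16 had such a p and the median was 0.06. The deposited 99th percentiles of the myclobutanil arrays were 3.01, 3.34, 3.10, 3.41 and 2.93 and those of the controls 3.09, 3.15, 2.87, 2.83 and 3.07. With triadimefon 0 genes were called as deposited (5 at an unadjusted p under 0.05) and 1, Psma7 (0.10, adjusted p = 0.045), after quantile normalization, against 5.49% and 5.96% of all genes. That single call was lost without control replicate 1, 2, 3 or 5 or triadimefon replicate 2, 4 or 5. Psmb5, Psmb7, Psmb8, Psmb9, Psmb10, Psme1 and Psme2 differed by 0.04, 0.06, 0.06, 0.06, -0.04, 0.07 and 0.04 with myclobutanil and by -0.01, 0.02, -0.18, -0.03, -0.13, 0.07 and 0.02 with triadimefon after quantile normalization, none of them called. As deposited the 14-day myclobutanil differences ran from 0.01 to 0.18 in the 3 immunoproteasome genes and from 0.13 to 0.21 in the 3 activators. With triadimefon they ran from -0.12 to 0.03 and from 0.07 to 0.12, and none was called. Between the treatments 0 genes were called at 6 h (limma; 4 as deposited and 5 after quantile normalization at an unadjusted p under 0.05; 0.309% and 1.09% of all genes called in either direction) and 0 at 14 days (9 and 6 at an unadjusted p under 0.05; 0.401% and 1.13% of all genes), where 2 were called after quantile normalization without myclobutanil replicate 1.

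**Figure D4:**
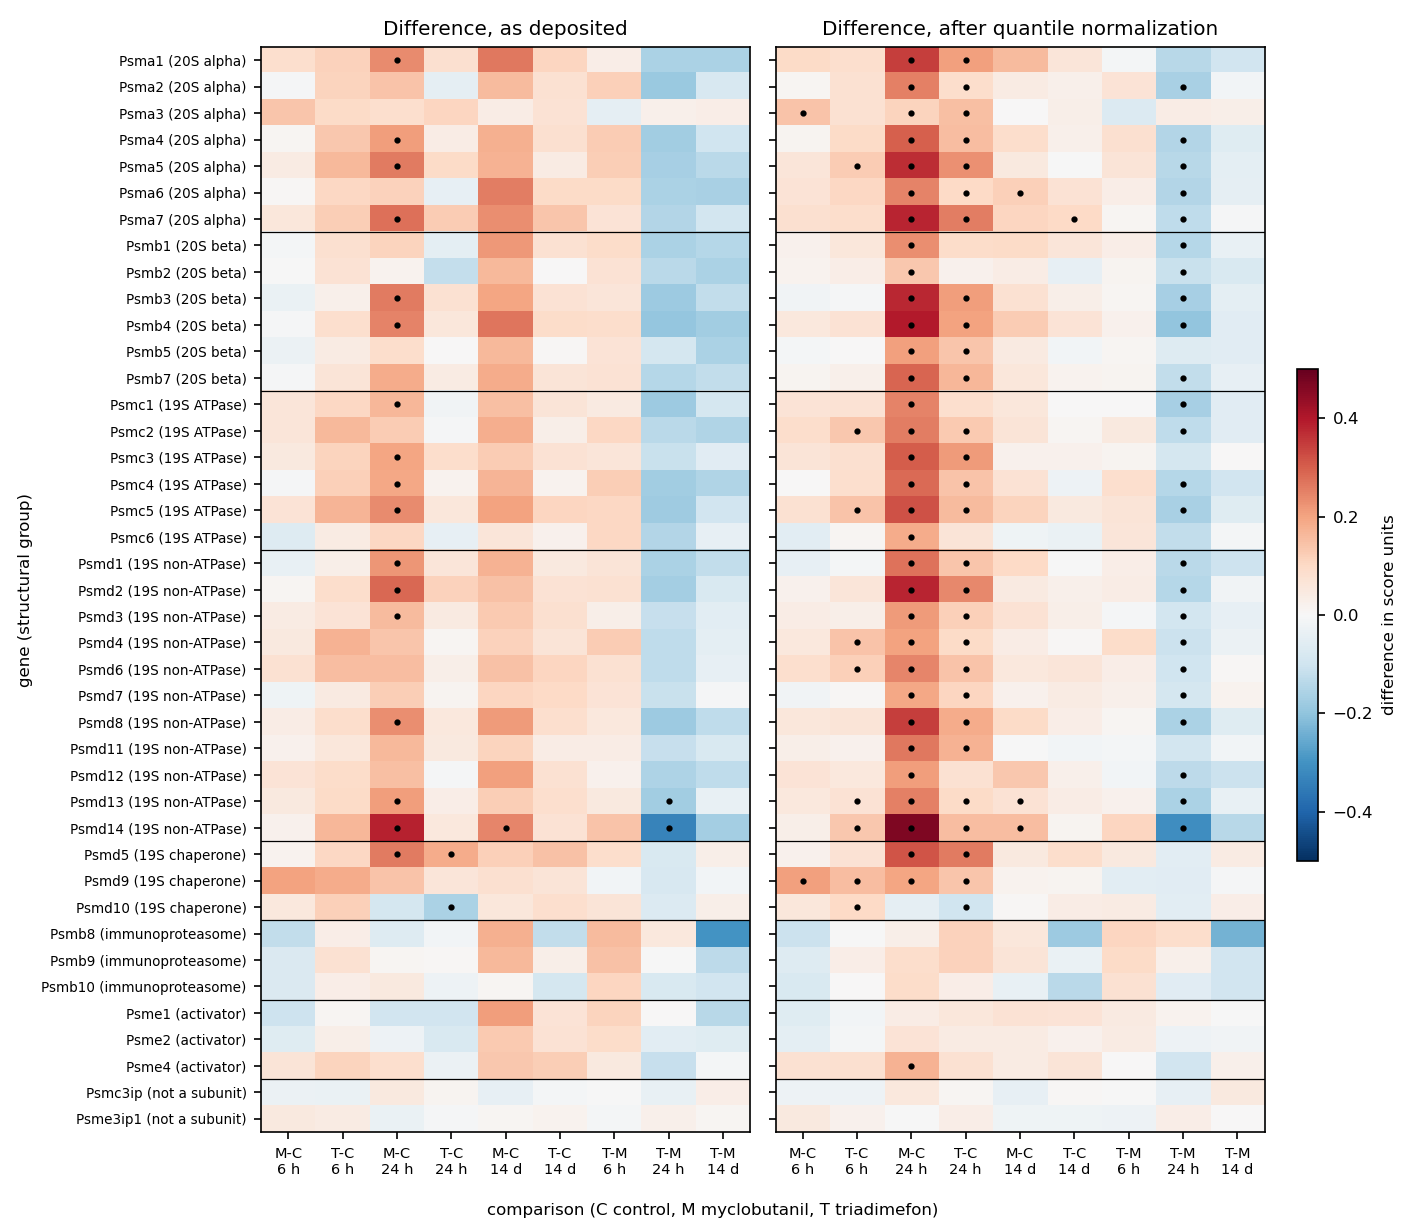
Difference in score units of each of the 41 genes (rows, by structural group) in the comparisons with controls and between the treatments (columns), as deposited at left and after quantile normalization at right; red is higher and blue lower in the first-named group, and a dot marks an adjusted p under 0.05. The dots concentrate in the 24 h columns, with 17 as deposited and 33 after quantile normalization for myclobutanil against controls, and there is none in the rows of Psmb8, Psmb9, Psmb10, Psme1 and Psme2.

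The change of the effect with time was tested as the difference of the differences. The myclobutanil effect at 24 h exceeded that at 6 h for 3 genes as deposited, Psmd14 by 0.36 (limma, adjusted p = 0.013), Psmd2 by 0.27 (adjusted p = 0.042) and Psmd1 by 0.26 (adjusted p = 0.037), where 2.48% of all genes were called in either direction. This count was 6 without control replicate 2 of 24 h and 1 without control replicate 2 or myclobutanil replicate 1 or 3 of 6 h, or control replicate 1, 3 or 4 or myclobutanil replicate 2, 3, 4 or 5 of 24 h. After quantile normalization 26 genes were called, all higher at 24 h, against 5.92% of all genes. From 24 h to 14 days 0 genes were called as deposited (4 at an unadjusted p under 0.05; 6.52% of all genes called) and 24 after quantile normalization, all lower at 14 days, against 5.12% of all genes, with Psmd2 (-0.33), Psma5 (-0.32), Psmd14 (-0.31) and Psmb3 (-0.30) the largest. The median of this change over the 41 genes was -0.02 as deposited and -0.18 after quantile normalization, so the count rests on the scaling. As deposited 1 gene was called without control replicate 4 or myclobutanil replicate 3 of 24 h. For triadimefon the change from 6 h to 24 h was called for Psmd10 alone as deposited (4.6% of all genes) and for 5 genes after quantile normalization (5.02% of all genes): Psmb3 (0.22), Psmd2 (0.18), Psma7 (0.17) and Psmb7 (0.14) higher and Psmd10 (-0.20) lower. From 24 h to 14 days it was called for Psmd10 alone as deposited (15.7% of all genes) and for 11 genes after quantile normalization (13.6% of all genes), 10 lower, led by Psma5 (-0.23) and Psmd2 (-0.21), and Psmd10 (0.14) higher. The first of the quantile counts was 3 without control replicate 5 or triadimefon replicate 4 of 6 h or control replicate 4 or triadimefon replicate 3 of 24 h, and 8 without triadimefon replicate 4 of 24 h. The second was 7 without control replicate 4 or triadimefon replicate 1 of 14 days. The median triadimefon change of the 41 genes was -0.07 from 6 h to 24 h and 0.03 from 24 h to 14 days as deposited. After quantile normalization these medians were 0.06 and -0.12, so their sign depended on the scaling. Comparisons that share the 24 h arrays are not independent of each other.

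Among the controls 3 genes were higher at 24 h than at 6 h as deposited, Psmd14 by 0.24 (limma, adjusted p = 0.018), Psmc1 by 0.18 (adjusted p = 0.035) and Psmd10 by 0.15 (adjusted p = 0.017), against 3.33% of all genes. After quantile normalization these 3 and Psmb2 were called, by 0.17, 0.11, 0.12 and 0.11, against 5.87% of all genes. Without replicate 3 of 6 h or replicate 2 of 24 h 0 were called as deposited (limma), without replicate 3 of 24 h 1 was, and without replicate 3 of 6 h 2 were called after quantile normalization. From 6 h to 14 days 0 genes were called in the controls on either scale (1 as deposited and 2 after quantile normalization at an unadjusted p under 0.05; 3.91% and 6.35% of all genes called).

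Of the members, 9 have more than 1 probe set, 14 other probe sets in all, of which 5 had a mean score under 0. With myclobutanil at 24 h after quantile normalization 13 of the 14 had the sign of the probe set used and 6 were called higher, where 1878 of all 31042 probe sets were. Among the 6 were the second sets of Psmd7 (0.17) and Psmd11 (0.19). Both other sets of Psmc6 and both of Psme4 did not pass the test, and those called include 2 sets of Psmb5 with a mean score under 0. For triadimefon 12 of the 14 had the same sign on that scale and 3 were called higher, where 1381 of all probe sets were. As deposited 12 of the 14 had the same sign with myclobutanil, and only the 2 other sets of Psmd14 were called higher. With triadimefon 13 had the same sign as deposited, and none of the other sets was called.

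For the lists that follow, the share of all genes called lower with myclobutanil at 24 h was 6.86% as deposited and 6.03% after quantile normalization, beside the shares called higher given above (3.92% and 8.24%). In the same order, triadimefon at 24 h had 2.6% and 5.89% of all genes higher and 8.31% and 6.34% lower. At 6 h 1.01% and 2.5% were higher with triadimefon. At 14 days 1.12% and 1.02% were higher with myclobutanil and 5.49% and 5.96% with triadimefon. Of 16 measured assembly and associated factors 5 were higher and 1 lower with myclobutanil at 24 h as deposited, and 8 were higher after quantile normalization. Usp14, a deubiquitinase bound to the cap, was higher by 0.34 (limma, adjusted p = 1.9e-05), Zfand2a, a heat-inducible proteasome-binding protein, by 0.28, Adrm1, a ubiquitin receptor of the cap, by 0.24, and the chaperone Psmg2 by 0.19; Psmf1, an inhibitor of the core, was lower by -0.14 (adjusted p = 0.047). Usp14 was lower with triadimefon than with myclobutanil at 24 h by -0.22 (adjusted p = 0.024). With triadimefon 3 of the 16 were higher and 2 lower as deposited, led by Zfand2a (0.24), Psmg1 (-0.24), Adrm1 (0.21) and Psmf1 (-0.15), and 6 and 1 after quantile normalization.

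Of 18 regulators of proteasome genes, Nfe2l1 differed by 0.01 with myclobutanil at 24 h and Nfe2l2 by 0.19 (limma, adjusted p = 0.28) as deposited, and neither was called on either scale. Of this list Hsf1 was higher by 0.08 (adjusted p = 0.049) and Ngly1, the glycanase that processes NRF1, lower by -0.17 (adjusted p = 0.041) as deposited. Of 19 NRF2 target genes 9 were higher and 1 lower with myclobutanil at 24 h as deposited, and 11 and 1 after quantile normalization, with Nqo1 (0.78), Gsta3 (0.72), Akr7a3 (0.54) and Ephx1 (0.53) the largest. With triadimefon 5 were higher and 1 lower as deposited and 7 and 1 after quantile normalization, with Ephx1 (0.43), Abcc3 (0.31), Gsr (0.30) and Srxn1 (0.29) the largest increases as deposited. At 14 days 8 of these 19 were higher with myclobutanil as deposited and 6 after quantile normalization, and with triadimefon 9 and 11.

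Of 19 cytosolic chaperones and members of the TRiC folding ring 5 were higher with myclobutanil at 24 h as deposited and 17 after quantile normalization, with Hsph1 (0.43), Stip1 (0.33), Dnajb1 (0.27) and Ahsa1 (0.24) the largest. With triadimefon this list was called at 6 h already, 5 as deposited and 14 after quantile normalization, led by Hsph1 (0.62), Hspa1a (0.40), Stip1 (0.36) and Ahsa1 (0.30), and at 24 h 2 and 8. Of 23 measured genes of p97, its shuttle factors and degradation at the endoplasmic reticulum 2 were higher (Nploc4 by 0.18 and Ufd1 by 0.14) and 1 was lower (Derl2 by -0.42) with myclobutanil at 24 h as deposited; 7 were higher and 1 lower after quantile normalization. Of 10 genes of ubiquitin and its activating and conjugating enzymes 1 was higher (Cdc34 by 0.13) and 1 lower (Ube2d2 by -0.15) as deposited and 3 were higher after quantile normalization. Of 15 autophagy genes 0 were called on either scale with myclobutanil at 24 h (limma).

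Of 26 genes of the interferon response and antigen presentation 0 were higher and 3 lower with myclobutanil at 24 h on both scales, Irf8 (-0.22), Mx1 (-0.20) and Ifit3 (-0.15). With triadimefon 3 were higher as deposited, Ifit1 (0.39), Mx2 (0.34) and Isg15 (0.32), and 5 after quantile normalization. Between the treatments 8 were higher with triadimefon as deposited and 9 after quantile normalization, led by Irf7 (0.49), Mx2 (0.47), Ifit1 (0.40) and Isg15 (0.37), against 0.443% and 1.65% of all genes, while Psmb8, Psmb9, Psmb10, Psme1 and Psme2 were not called in that comparison.

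Markers of resident macrophages moved with the myclobutanil group. All 9 measured Kupffer cell and macrophage markers were lower with myclobutanil at 24 h on both scales, where 6.86% and 6.03% of all genes were, from Clec4f (-0.79) to Cd163 (-0.22) as deposited. After quantile normalization the mean of the 9 ran from 1.21 to 1.46 in the 24 h controls, from 0.85 to 1.14 with myclobutanil and from 1.22 to 1.52 with triadimefon. None of the 9 had a mean deposited score under 0. The 7 hepatocyte markers were not called with myclobutanil. Of the 14 T and NK cell markers 2 were lower as deposited and 3 after quantile normalization, and 7 had a mean score under 0; of 4 neutrophil markers and of 6 endothelial markers 2 each were lower on both scales, and of 3 B and plasma cell markers, all with a mean under 0, 1 was lower. The stellate, bile duct and erythroid lists had no call. At 14 days of myclobutanil 0 of the 9 macrophage markers were called as deposited (limma) and 2 were lower after quantile normalization, against 0.0703% and 0.556% of all genes. The part of these cell markers in the proteasome result was not tested.

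The group means of genes outside the symbol rule were correlated with the mean of the 17 members called as deposited with myclobutanil at 24 h. The same 17 members were used on both scales. As deposited the 10 closest genes over the 9 group means were Usp14 (Pearson r = 0.98), Tomm70, Aarsd1, Ubqln1, Mrpl49, Nhp2, Mmgt1, Snrpa1, E2f6 and Ide, down to r = 0.95. After quantile normalization they were Eed (r = 0.99), E2f6, Usp14, Nup160, Pcna, Tomm70, Med14, Lig1, Mcm5 and Ubqln1, down to r = 0.97. Usp14, Tomm70, E2f6 and Ubqln1 are in both lists. The points of each correlation are 9 means that share their arrays and so the brightness of each array. Usp14 headed the first list, with a difference of 0.42 after quantile normalization at 24 h of myclobutanil, near the 0.47 of Psmd14. The 17 members were chosen by their myclobutanil difference at 24 h, so higher values there in the listed genes follow in part from that choice.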

How the data were processed

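Liver RNA on 45 arrays (9 groups of 5) was analysed from the authors' deposited table, whose values are scores on a log-type scale; log base, probe summary and normalization are not given in the sources used here, and no scanner files were used. The sources conflict on whether the 5 arrays of a group are 5 animals, so p-values measure the spread between these arrays, which may be partly technical. Of 31099 probe sets, 57 controls were left out and 31042 tested; 20826 carry 1 gene symbol in the platform annotation, 436 several and 9780 none, and all 41 members matched RefSeq by Entrez ID.

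Each probe set was fitted with limma 3.58.1 (R 4.3.3; 1 mean per group over all 45 arrays, empirical Bayes), with Benjamini-Hochberg adjustment over all tested probe sets and a threshold of 0.05, on the deposited scores and, throughout, after quantile normalization. The scripts were tested on simulated data. Genes are named by a rule: every member accounted for, up to 10 changed members per direction and comparison, always the catalytic and PA28 subunits, and up to 4 changed members of other lists. The members and lists were chosen with earlier results of these data known. Both treatments share the control arrays of each time. Alternatives left out each array, fitted a replicate block or the array-name ending, used only the groups compared, brighter probe sets, the mean of a gene's probe sets or cyclic loess. The number of arrays limits the precision. The replicate numbers were checked for pairing and did not pair the arrays.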

Additional observations from a re-analysis of the deposited data

Results flagged for a closer look

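Several measures were tested in each of the 9 groups of 5 arrays for a single array far from the rest. Of these 72 tests 9 were marked, where chance marks about 1 in 20. The core means hold some of the genes also tested singly, so the tests are not independent of each other. The mean of the 34 core genes of myclobutanil replicate 3 at 24 h was 1.979 as deposited, above the other 4, and that of myclobutanil replicate 1 at 14 days was 1.594 after quantile normalization, below the others. Psmd14 read 1.582 in triadimefon replicate 1 at 6 h and 1.989 in myclobutanil replicate 3 at 24 h. Psmd5 read 1.338 in control replicate 2 at 6 h, Psmb5 2.291 in myclobutanil replicate 2 at 6 h, and Psmb8 1.739 and 2.133 in control replicate 1 at 6 h and control replicate 5 at 14 days. Psmd10 read 0.6794 in triadimefon replicate 1 at 24 h, the lowest of its group.

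Effects that differed between times were those of myclobutanil on Psmd14 (24 h minus 6 h, 0.3635), Psmd2 (0.2744) and Psmd1 (0.2566), and of triadimefon on Psmd10 (-0.2761 from 6 h to 24 h and 0.2427 from 24 h to 14 days), as deposited. After quantile normalization 26 and 24 genes differed between those times for myclobutanil and 5 and 11 for triadimefon.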

How the results depend on the processing

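The number of proteasome genes called depended on the scaling, on which arrays entered the fit and on single arrays. Quantile normalization moved it for myclobutanil to 2 at 6 h, 33 at 24 h and 3 at 14 days, for triadimefon to 9, 28 and 1, for triadimefon against myclobutanil at 24 h to 24, for the change of the myclobutanil effect to 26 (6 h to 24 h) and 24 (24 h to 14 days), and for that of triadimefon to 5 and 11. Cyclic loess, chosen after seeing the data along with the other alternatives run on quantile normalized values, kept every such count within 1.5 times. Replicate numbers did not pair the arrays (mean r of same-numbered deviations 0.03, 60 of 180 pairs over 0.1); with the replicate block the deposited counts were 1 for either compound at 6 h, 2 for myclobutanil at 14 days and 18 for myclobutanil at 24 h, and it moved no other count by over 1.5 times. With only the groups compared in the fit, deposited counts were 5 and 0 for myclobutanil and triadimefon at 24 h, 2 for triadimefon at 14 days, 1 for the myclobutanil change from 6 h to 24 h and 0 for the control change; quantile counts were 0 and 4 at 6 h, 1 for myclobutanil at 14 days, 10 between the treatments at 24 h and 2 for the control change from 6 h to 24 h. With only arrays of ending 11, the deposited counts for the 6 h to 24 h changes of myclobutanil, triadimefon and controls were 0 each; quantile counts were 0 for both compounds at 6 h and for myclobutanil at 14 days, and 1 for the triadimefon and control changes. The ending as a covariate gave 1 for the deposited control change, the mean of a gene's probe sets 1 for triadimefon at 6 h, and probe sets above the median level 4 for myclobutanil and 1 for triadimefon at 14 days. Leaving out 1 array gave deposited counts of 7 to 24 for myclobutanil at 24 h, 1 to 2 for triadimefon, 2 to 4 between the treatments, 0 to 5 for myclobutanil at 14 days, 1 to 6 and 0 to 1 for the myclobutanil changes, and 0 to 4 for the control change. The quantile counts were 1 to 2 and 2 to 8 at 6 h, 14 to 25 between the treatments at 24 h, 0 to 5 and 0 to 1 for myclobutanil and triadimefon at 14 days, 0 to 2 between them, 3 to 8 and 7 to 15 for the triadimefon changes, and 2 to 4 for the control change; for myclobutanil at 24 h they were 32 to 33. None of the differences called as deposited changed direction under these. Named genes that were not called did: with myclobutanil at 24 h, Psmb8 (0.03), Psme1 (0.04) and Psme2 (0.07) were positive after quantile normalization and negative as deposited, and without 1 array Psmb9 ran from -0.06 to 0.11 and Psme2 from -0.07 to 0.04; Psmb5, Psmb7, Psmb8, Psmb9, Psmb10, Psme1 and Psme2 also changed sign with triadimefon at 24 h under at least 1 alternative, and Psmb9 and Psme1 between the treatments.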
